A study of Mus musculus with 2 samples.

Results

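The nuclear genes of oxidative phosphorylation, the set of mitochondrial enzyme complexes that oxidise NADH and succinate and make ATP, were described on 2 microarrays of sorted mouse alveolar macrophages. Members were the genes whose symbol begins with Nduf, Uqcr, Atp5 or Cox followed by 4 to 8, the 4 succinate dehydrogenase genes Sdha to Sdhd, and the cytochrome genes Cyc1 and Cycs. Only rows of the table with a single gene symbol were used. This gave 91 genes of the 22180 measured, of which 81 encode subunits or their isoforms, 8 are the complex I assembly factors named Ndufaf and 2 are pseudogenes. The Atp5c1-ps and Uqcrh-ps1 pseudogenes lay below background on both arrays and are not described further.

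Alveolar macrophages, which live in the airspaces of the lung and clear surfactant and particles, came from lungs of adult C57BL6 littermates. They were sorted after collagenase digestion as DAPI-negative cells carrying Siglec-F and CD11c. The wild type mice carried floxed Pikfyve alleles, and the knockout mice carried the same alleles with LysM-Cre, a recombinase expressed from the lysozyme 2 locus in myeloid cells generally. Pikfyve encodes an endosomal lipid kinase that phosphorylates phosphatidylinositol 3-phosphate. There was 1 array for each genotype, cDNA having been amplified from 10 ng of total RNA, and how many mice each array represents is not stated in the labels. No difference between genotypes could be tested, and every value below lacks a replicate error.

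Electrons enter the chain at complex I (NADH dehydrogenase) or complex II (succinate dehydrogenase), pass through complex III (the cytochrome bc1 complex) and cytochrome c to complex IV (cytochrome c oxidase), and the proton gradient they build drives complex V (ATP synthase). All complexes except complex II also contain subunits encoded by mitochondrial DNA, which are not analysed here. Alveolar macrophages are known for relying on fatty acid oxidation and mitochondrial respiration. Transcription of the nuclear subunit genes is classically tied to the factors NRF1, GABP (of the ETS family), YY1 and ERR alpha.

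Promoter windows are shown because these genes are textbook targets of shared factors. Whether those factors have a part in the differences between the arrays was not tested. RefSeq (GRCm38.p6) windows of 300 bases, from 250 before to 50 after the annotated start, were matched by gene identifier for 66 of the 81 subunit genes. Both strands were searched for the NRF1 motif (a pair of GCGC runs with a gap of 2 bases), CCGGAAG (ETS and GABP), AAGATGGCG (YY1) and TCAAGGTCA (ERR). The windows below belong, for each complex, to the subunit gene with the highest difference among those with a match, and capitals mark the matches.
Ndufc1 promoter, chr3:51408906-51409205, minus strand: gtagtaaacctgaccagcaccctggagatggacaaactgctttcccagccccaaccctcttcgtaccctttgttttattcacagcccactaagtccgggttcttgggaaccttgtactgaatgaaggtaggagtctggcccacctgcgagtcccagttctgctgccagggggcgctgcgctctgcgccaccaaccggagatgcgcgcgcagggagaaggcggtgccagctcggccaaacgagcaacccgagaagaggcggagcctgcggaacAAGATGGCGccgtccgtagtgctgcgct
Sdhd promoter, chr9:50603800-50604099, minus strand: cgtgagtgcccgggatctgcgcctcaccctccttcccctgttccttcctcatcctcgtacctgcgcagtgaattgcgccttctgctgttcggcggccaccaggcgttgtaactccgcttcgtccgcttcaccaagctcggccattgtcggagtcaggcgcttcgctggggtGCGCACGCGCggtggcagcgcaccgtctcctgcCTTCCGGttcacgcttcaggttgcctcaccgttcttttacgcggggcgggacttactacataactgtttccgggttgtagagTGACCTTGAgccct
Uqcr11 promoter, chr10:80406772-80407071, minus strand: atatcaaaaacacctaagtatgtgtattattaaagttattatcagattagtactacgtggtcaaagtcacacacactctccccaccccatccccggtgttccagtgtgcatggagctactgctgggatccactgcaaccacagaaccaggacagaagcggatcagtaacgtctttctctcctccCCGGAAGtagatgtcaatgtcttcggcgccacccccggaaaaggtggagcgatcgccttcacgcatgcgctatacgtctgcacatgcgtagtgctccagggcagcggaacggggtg
Cox8a promoter, chr19:7217567-7217866, minus strand: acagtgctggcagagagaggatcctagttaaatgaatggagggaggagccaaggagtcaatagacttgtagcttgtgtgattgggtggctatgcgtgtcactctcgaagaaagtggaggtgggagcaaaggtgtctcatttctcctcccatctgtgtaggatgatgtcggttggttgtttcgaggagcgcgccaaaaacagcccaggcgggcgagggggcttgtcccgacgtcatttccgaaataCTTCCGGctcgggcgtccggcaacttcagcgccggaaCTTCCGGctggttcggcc
Atp5j2 promoter, chr5:145191492-145191791, minus strand: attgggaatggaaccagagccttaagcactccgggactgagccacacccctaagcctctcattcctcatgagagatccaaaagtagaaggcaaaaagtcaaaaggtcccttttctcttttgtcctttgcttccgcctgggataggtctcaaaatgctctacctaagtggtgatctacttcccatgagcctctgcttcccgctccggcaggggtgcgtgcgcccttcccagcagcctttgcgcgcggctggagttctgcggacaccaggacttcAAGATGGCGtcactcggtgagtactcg
In these windows Ndufc1 and Atp5j2 each held the YY1 letters just after the start, and Uqcr11 held 1 and Cox8a 2 copies of the ETS letters. Sdhd held NRF1, ETS and ERR letters in 1 window.

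Over the subunit genes, the NRF1 letters were found in 17 of 66 (25.8%), against 7% of all 27025 genes with a window and 13.5% of the 9857 of them analysed here. The ETS letters were found in 17 of 66 (25.8%), against 9.93% and 18.8%. The YY1 letters stood in 6 of 66 (9.09%), against 1.64% and 3.28%, and the ERR letters in 2, against 0.466% and 0.335%. Any of the 4 motifs was present in 17.0% of all genes with a window and 31.4% of those analysed. By complex, it was present in 15 of 29 complex I genes, 3 of 3 of complex II and 3 of 5 of complex III. In complex IV it was 3 of 14 (21.4%) and in complex V 11 of 15. Of mitochondrial ribosomal protein genes 37 of 62 (59.7%) held any of the motifs. A match is a description of letters and not of binding. Among subunits that passed the level filter described below, those with NRF1 letters had a median difference of 0.24 (17 genes) and those without 0.29 (47 genes). The corresponding medians were 0.31 and 0.28 for ETS (17 and 47 genes), 0.42 and 0.26 for YY1 (6 and 58 genes) and 0.29 and 0.28 for ERR (2 and 62 genes).

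Values are log2 and differences are the knockout-labelled minus the wild-type-labelled array. Pikfyve itself read 5.68 on the array labelled wild type and 5.95 on the array labelled knockout, near background on both, so its row does not check the labels and each array is called by its label throughout. The level filter kept the 12516 genes whose mean over the 2 arrays was at least 5.13, the median row. Background was the 95th percentile of 1428 olfactory, vomeronasal and taste receptor genes, at 5.37 and 5.31. Of the fixed alveolar macrophage markers, 11 of 11 measured lay above background on both arrays, with a summed linear signal of 30404 and 35249. Single markers went both ways, from -0.98 (Krt79) to 0.72 (Fabp5), and Siglecf, the gene of the sorting marker Siglec-F, differed by -0.73. Across lists of other cell types, the summed signal in the knockout-labelled array relative to the other ran from 0.546 (monocyte markers) to 1.58 (interstitial macrophage markers). Some genes of these lists read high on both arrays, such as the airway gene Scgb1a1 (12.26 and 12.39) and the neutrophil gene S100a8 (11.44 and 12.08). The part of other cell types in the differences below was not tested. In bulk RNA fewer cells of a type and less RNA per cell cannot be told apart.

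Most subunit genes read slightly higher in the knockout-labelled array. Of the 77 subunits that passed the filter, 73 were above 0 as deposited (68 to 76 under other scalings), where 48.9% of all genes analysed were. The subunits had a median level of 10.29 and all genes analysed 6.40. Among all genes the share above 0 was 68.6% at a mean level from 9 to 11 and 69.3% from 11 upward. The median difference of the subunits was 0.27, a 1.21-fold difference, against 0.00 over all genes. Their quartiles were 0.17 and 0.41. As deposited 5 reached 1.5-fold higher (4.45% of all genes did) and none 1.5-fold lower (2.66% of all genes), and none differed by 2-fold. The 5 were Ndufb3, Ndufc1, Cox6a2, Cox7a2l and Cox7a1. The count was 7 with each array centred on its median, 3 with quantile normalisation or with 32 added to each linear signal, and 1, Cox6a2, once a smooth trend of difference on level was removed. The 4 subunits below 0, where 49.6% of all genes lay, were Cox7c, Uqcrc1, Cox4i2 and Cox6b2; with each array centred on its median only Cox7c stayed below 0. The 4 that missed the filter, Cox8b, Cox8c, Cox7b2 and Ndufa4l2, all read lower in the knockout-labelled array but lay below background on both.

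**Figure D1:**
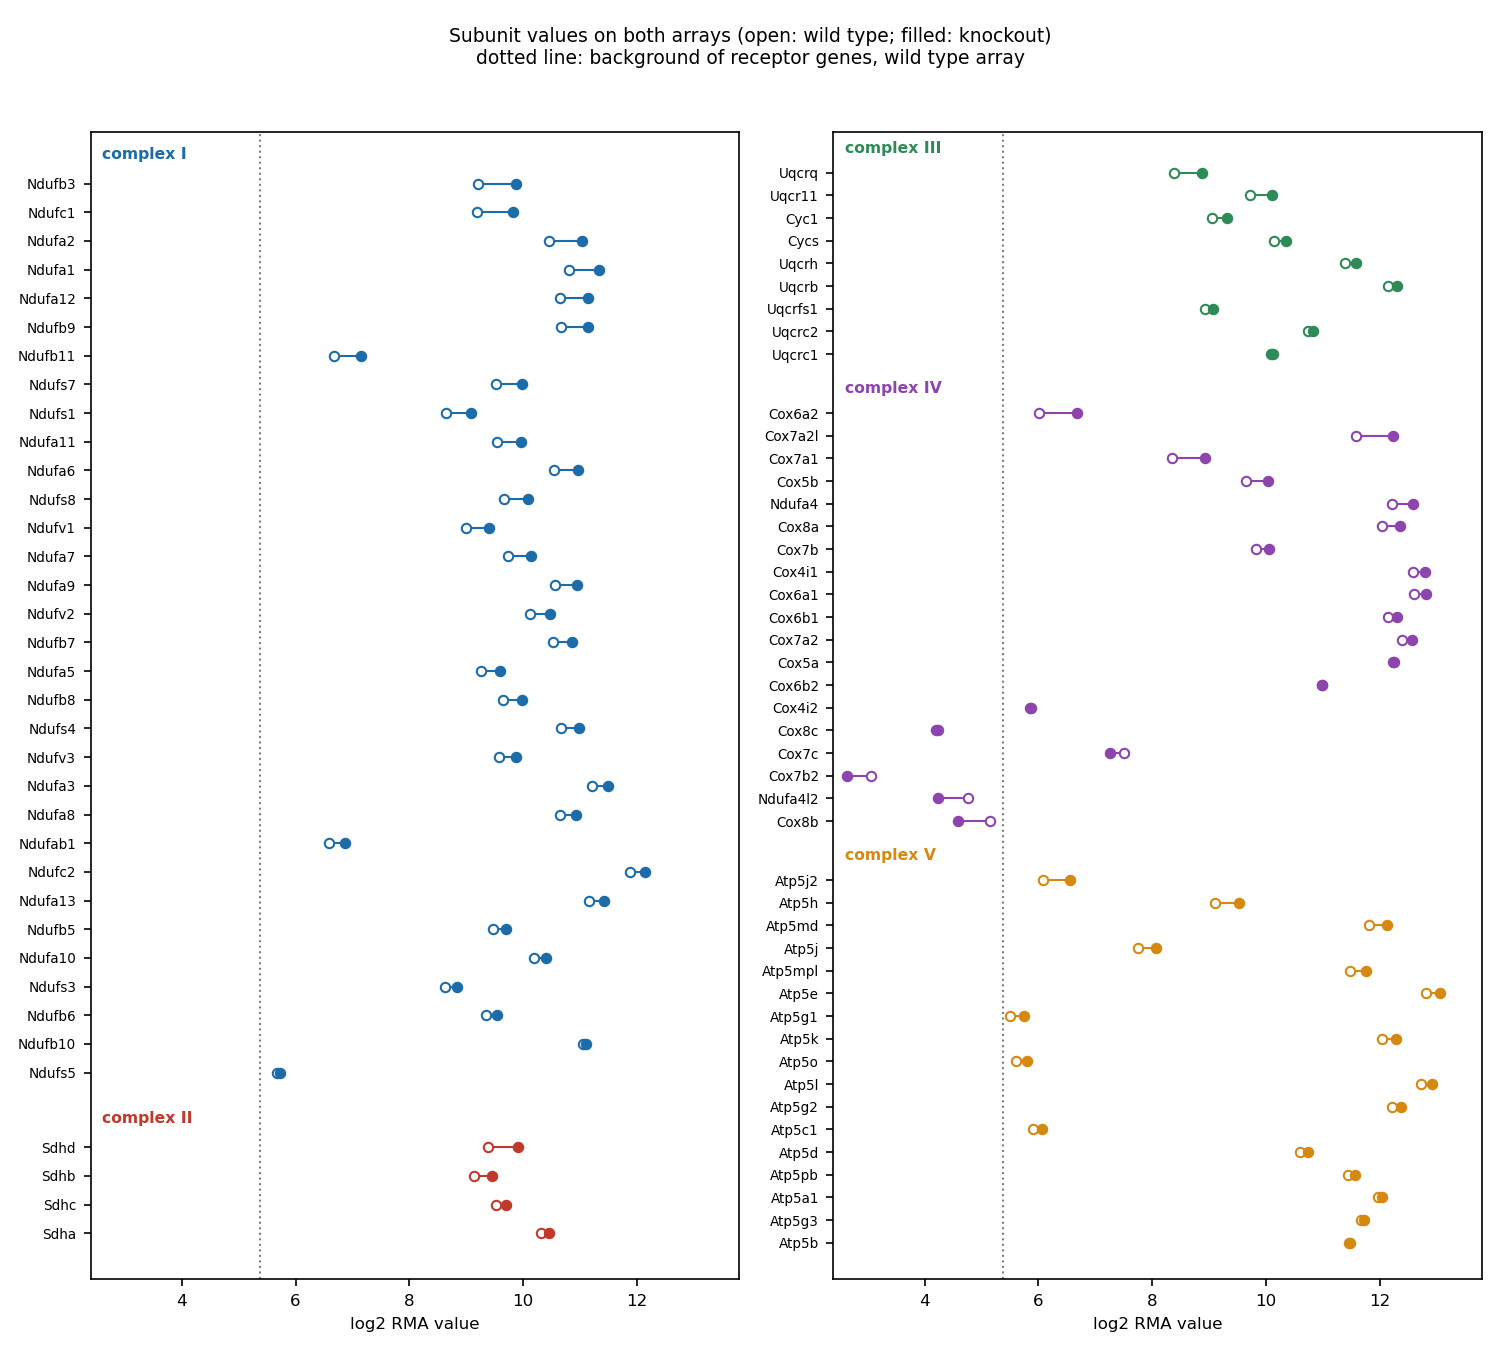
Log2 values of the 81 subunit genes (horizontal axis) on the array labelled wild type (open circles) and the array labelled knockout (filled circles), grouped by complex and ordered by difference; the dotted line is the wild type background of 5.37. The filled circle lies to the right in all 32 complex I and all 17 complex V rows, where 48.9% of all genes analysed are above 0. These are values as deposited, and 4 of these genes turn below 0 without the level trend. In complex IV 4 rows lie left of the line.

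Highly expressed genes tended to read higher in the knockout-labelled array, so the subunits were also set beside genes of like level. Among genes with a mean level under 9, the median difference was 0.26 for 16 subunits and -0.02 for all genes. Between 9 and 11 it was 0.33 for 36 subunits and 0.14 for 1098 genes, and from 11 upward 0.20 for 25 subunits and 0.10 for 401 genes. Relative to the median of genes in the same of 20 level bins, 67 of 77 subunits were higher (50% of all genes are), by a median of 0.17. By more than 1 local spread (the scaled median absolute deviation in the bin, 0.20 to 0.33) 23 of 77 exceeded that median, as did 16.9% of all genes. The differences of single subunits are thus mostly within the scatter of genes of like level, while their direction is shared.

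**Figure D2:**
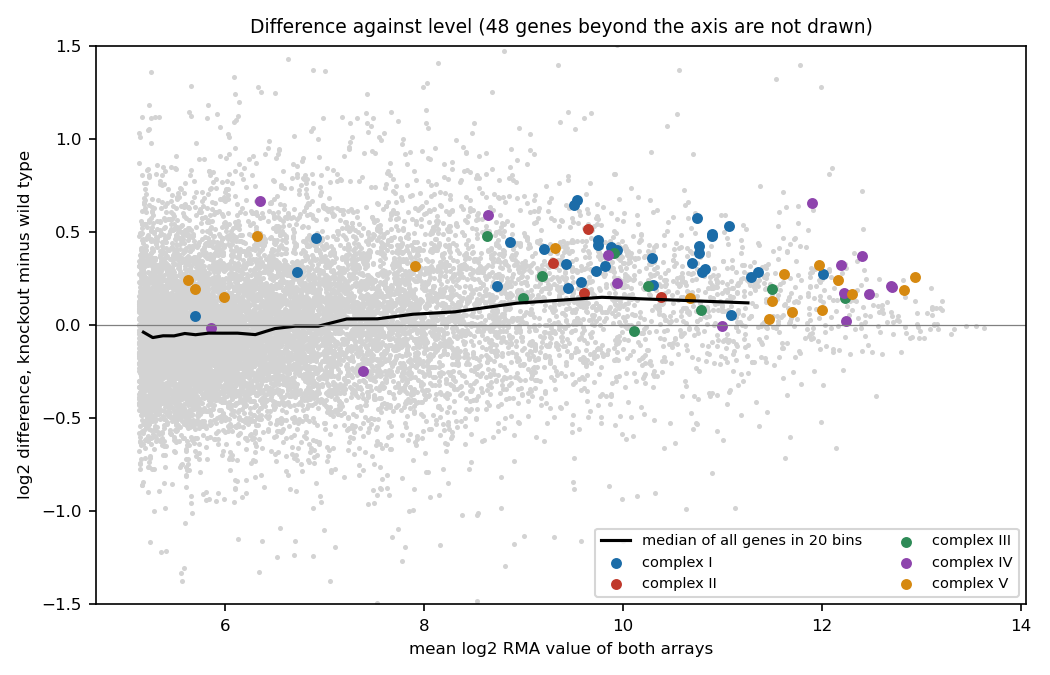
Difference between the arrays (vertical axis, log2) against the mean log2 value of both (horizontal axis) for the genes analysed (grey) and the subunits by complex (colours); the black line is the median of all genes in 20 bins, and 48 genes lie beyond the axis. Of 77 subunits, 67 lie above the median of their bin, and complex IV and V subunits crowd at the highest levels.

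Complex I had the highest median of the 5 complexes. All 32 measured subunits passed the filter and all 32 were above 0, where 48.9% of all genes analysed were. Among all genes with a mean level from 9 to 11 that share was 68.6%. The median of the complex was 0.34, with a range from 0.04 to 0.67. Relative to genes of like level 31 of 32 were higher (50% of all genes are) and the median was 0.23. Ndufb3, an accessory subunit of the membrane arm, read 9.20 on the array labelled wild type and 9.87 on the array labelled knockout, a 1.59-fold difference. Ndufc1, a small membrane-arm subunit, read 9.19 and 9.83 (1.56-fold). Ndufa2, an accessory subunit of the matrix arm, read 10.46 and 11.04, and Ndufa1, a small membrane-arm subunit, read 10.80 and 11.33; both differences stayed under 1.5-fold. The smallest differences of the complex were those of Ndufs5 (5.68 and 5.72, near background), Ndufb10 (11.06 and 11.11) and Ndufb6 (9.35 and 9.55). Ndufb10 read lower, not higher, once a smooth trend of difference on level was removed.

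The catalytic core of complex I read higher alongside its accessory shell. Ndufv1, which binds the flavin that accepts electrons from NADH, read 8.997 and 9.404, a difference of 0.41. Its iron-sulphur partners Ndufv2 (10.11 and 10.47) and Ndufs1 (8.64 and 9.08) differed by 0.36 and 0.45. In the arm that passes electrons to ubiquinone, Ndufs7 differed by 0.45 (9.53 and 9.98), Ndufs8 by 0.42 (9.67 and 10.08) and Ndufs3 by 0.21 (8.63 and 8.84). The 6 core subunits therefore lay between 0.21 and 0.45, inside the range of the 26 accessory subunits, whose median was 0.32. By name series, the 13 Ndufa subunits of the complex had a median of 0.39, the 8 Ndufb subunits 0.32, the 2 Ndufc subunits 0.46, the 6 Ndufs subunits 0.36 and the 3 Ndufv subunits 0.36.

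Of the 8 Ndufaf genes, whose products build complex I but are not part of it, 2 held the largest differences among the genes matched. Ndufaf7, a mitochondrial methyltransferase, read 7.96 and 8.88 (1.90-fold), and Ndufaf2, an assembly chaperone, read 8.49 and 9.38 (1.85-fold). Ndufaf8 differed by 0.49 and Ndufaf3 by 0.40, Ndufaf6 by 0.30 and Ndufaf5 by 0.21. Ndufaf1 read 8.79 and 8.80, and Ndufaf4 8.81 and 8.77. The 8 factors thus spread more widely than the subunits, with a median of 0.35. Among them 6 lay above genes of like level (50% of all genes do).

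Complex II, the citric acid cycle enzyme that feeds electrons from succinate, had all 4 subunits above 0. The share was 48.9% of all genes analysed, and 68.6% of those with a mean level from 9 to 11. The median of complex II was 0.25 (0.14 without the level trend). Sdha, the flavoprotein, read 10.31 and 10.45, level with genes of like signal. The iron-sulphur subunit Sdhb read 9.13 and 9.46. Of the membrane anchors, Sdhd read 9.39 and 9.90, the largest difference of the complex (1.43-fold), and Sdhc read 9.52 and 9.70.

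In complex III the small subunits differed more than the large core proteins. Uqcrq (8.39 and 8.87) and Uqcr11 (9.71 and 10.10), small subunits of the complex, differed by 0.48 and 0.39. Uqcrh differed by 0.19 and Uqcrb by 0.15. The core proteins Uqcrc1 (10.13 and 10.10) and Uqcrc2 (10.74 and 10.82) differed by -0.03 and 0.08, below genes of like level; Uqcrc1 turned above 0 with arrays centred on their medians, and Uqcrc2 below 0 without the level trend. Of the electron-carrying subunits, the Rieske protein gene Uqcrfs1 read 8.93 and 9.07 and the cytochrome c1 gene Cyc1 9.05 and 9.31. Cycs, the mobile carrier cytochrome c, averaged 10.15 and 10.36 over 5 rows whose differences ran from 0.06 to 0.28, 2 of the rows holding identical values. With Cyc1 and Cycs counted here, 8 of 9 genes were above 0. Of all genes analysed 48.9% were, and 68.6% of those with a mean level from 9 to 11. The median of complex III was 0.19, but 0.12 with quantile normalisation and 0.066 without the level trend.

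Complex IV, which also has tissue isoforms, was the most divided complex. Its 15 genes that passed the filter had a median of 0.21, with 12 above 0 and 3 at least 1.5-fold higher (4.45% of all genes). Of all genes analysed 48.9% were above 0, and 69.3% of those with a mean level from 11 upward. Without the level trend the median was 0.072 and, of those 3, Cox6a2 alone stayed past 1.5-fold. Of the general subunits, Cox5b differed by 0.37 (mean of 2 rows, 9.66 and 10.03), Ndufa4, once assigned to complex I, by 0.37 (12.22 and 12.59), and Cox8a by 0.32 (12.03 and 12.35). Cox7b averaged 9.82 and 10.05 over 2 rows that differed by 0.08 and 0.37, the widest gap between rows of a subunit. Cox4i1 (12.59 and 12.80), Cox6a1 (12.61 and 12.81), Cox6b1 (12.14 and 12.31) and Cox7a2 (12.39 and 12.56) all lay within 0.21, and Cox5a read 12.23 and 12.25, turning below 0 with quantile normalisation or without the level trend. Cox7c was the one general subunit lower in the knockout-labelled array (7.51 and 7.26). Relative to genes of like level it stood at -0.28, within the local spread of 0.31.

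In 2 isoform families the muscle-type member differed more than the general one. Cox6a2, the heart and skeletal muscle isoform, read 6.02 and 6.68 (1.58-fold) where Cox6a1 differed 1.15-fold. Cox7a1, likewise of muscle, read 8.34 and 8.93 (1.503-fold) where Cox7a2 differed 1.12-fold. With 32 added to each linear signal Cox6a2 and Cox7a1 differed by 0.48 and 0.54, both under 1.5-fold. Without the level trend Cox7a1 also fell under it, at 0.50, and Cox6a2 stood at 0.70. Cox7a2l, a family member described as a factor of supercomplexes of complexes III and IV, read 11.58 and 12.23 (1.57-fold). The muscle isoform gene Cox8b, by contrast, read 5.14 and 4.59, below background on both arrays. Of 6 heart and skeletal muscle markers, 3 lay above background on both arrays (Tnnt2 and Tnni3, with differences of -0.29 and -0.30, and Acta1, with 0.13), while Myh6, Actc1 and Ckm lay below it on both. The summed signal of the 6 markers was 336 and 294. The testis-type isoform Cox6b2 read 10.996 and 10.987, the lung-type isoform Cox4i2 5.87 and 5.85, and the testis-type genes Cox7b2 (3.06 and 2.63) and Cox8c (4.24 and 4.204) lay below background. Ndufa4l2, the hypoxia-responsive paralogue of Ndufa4, read 4.76 and 4.24.

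Complex V, ATP synthase, had all 17 genes above 0 as deposited but none at 1.5-fold higher (4.45% of all genes). The share above 0 was 48.9% of all genes analysed, and 69.3% of those with a mean level from 11 upward. The median of complex V was 0.19 (0.12 without the level trend), with a range from 0.03 to 0.48. Small subunits of the membrane part and the peripheral stalk had the higher medians. Atp5j2, subunit f, read 6.08 and 6.55 (1.39-fold), and the peripheral stalk subunit d gene Atp5h averaged 9.11 and 9.52 (1.33-fold) over 2 rows. Atp5md read 11.81 and 12.13. The 5 small membrane subunits had a median of 0.27 and the 4 peripheral stalk subunits 0.25. Relative to genes of like level these medians were 0.16 and 0.25. In the catalytic head, Atp5b, the beta subunit that forms ATP, read 11.46 and 11.49, and the alpha subunit gene Atp5a1 11.97 and 12.04. The 5 subunits of that head, F1, had the lowest median of the parts, 0.15, but Atp5e among them differed by 0.26. Of the 3 genes for the identical c subunits of the rotor ring, Atp5g1 read 5.50 and 5.74, Atp5g2 12.22 and 12.38 and Atp5g3 11.67 and 11.73. Atp5b, Atp5a1 and Atp5g3 turned below 0 when the level trend was removed, and Atp5b also with quantile normalisation.

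**Figure D3:**
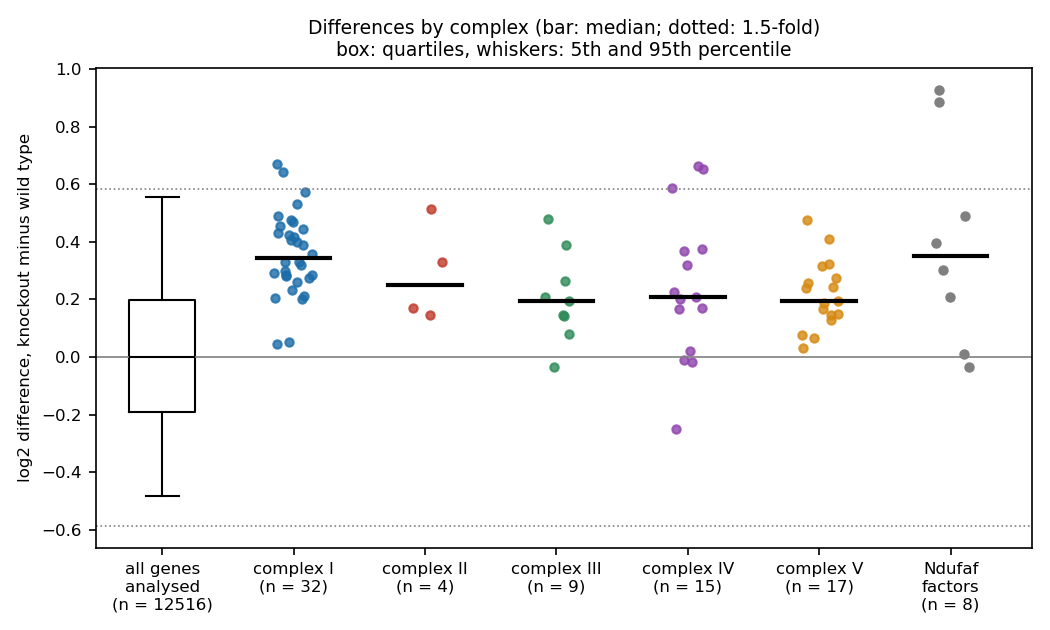
Log2 difference between the arrays (vertical axis) for the genes of each complex that passed the filter and for the Ndufaf assembly factors (points, with the median as a bar), beside a box of the 12516 genes analysed (quartiles, with whiskers at the 5th and 95th percentiles). Complex I has the highest median of the complexes, 0.34, the others lie from 0.19 to 0.25, and 2 assembly factors and 5 subunits lie past the dotted 1.5-fold line.

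The order of the complexes is a description of 2 arrays and was not tested, since subunits of a complex are not replicates. Complexes IV and V had median levels of 11.91 and 11.50 and complex I 9.91, and the part of level in the order was not tested. Restricted to genes with a mean level from 9 to 11, a window chosen after the values were seen, the medians were 0.39 for 22 genes of complex I, 0.25 for 4 of complex II, 0.21 for 5 of complex III, 0.22 for 3 of complex IV and 0.28 for 2 of complex V. Across the 77 subunits, difference and mean level correlated with Pearson's r = -0.09 and Spearman's rho = -0.22, where all 12516 genes gave 0.17 and 0.19. These correlations are across genes of the same 2 arrays.

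Other genes of the pathway were read for comparison. Assembly factors of all complexes outside the name rule had a median of 0.32. Of these 37 genes 34 were above 0 (48.9% of all genes analysed) and 6 at least 1.5-fold higher (4.45%). Without the level trend the median was 0.28, with 34 of 37 above 0. The 4 complex II factors all differed by at least 0.40, led by Sdhaf4 (9.29 and 10.05, 1.69-fold), which assists the flavoprotein. Uqcc2, a complex III factor, read 9.14 and 9.77, and the complex IV factors Pet100 (8.94 and 9.62) and Coa4 (7.92 and 8.59) were 1.603-fold and 1.595-fold higher. Tmem126b, of complex I assembly, was 1.54-fold higher, but the 7 complex I factors outside the name rule had a median of 0.12, with Ecsit at -0.05 and Acad9 and Timmdc1 both at 0.09. Coa7, of complex IV, was 1.52-fold higher, while Cox15, which makes haem a, read 6.05 and 5.89. Mitochondrial ribosomal protein genes, needed to translate the subunits encoded in mitochondrial DNA, had a median of 0.29, with 66 of 71 above 0 (48.9% of all genes analysed). Once the level trend was removed their median was 0.19, with 61 of 71 above 0. Mrpl27 (5.55 and 6.66, the first value near background) and Mrpl16 (9.33 and 9.95) were highest. Mrpl38 (8.18 and 7.77) and Mrps2 (5.84 and 5.66) were lowest.

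Enzymes and carriers that work beside the chain differed less. Citric acid cycle enzymes had a median of 0.11 with 10 of 13 above 0 (48.9% of all genes analysed). The median was -0.01, with 6 of 13 above 0, once the level trend was removed. Idh3a (7.44 and 7.90) and Idh3b (9.75 and 10.04), subunits of the NAD-dependent isocitrate dehydrogenase, were highest, and Dlst (7.11 and 6.69) and Idh2 (9.25 and 8.84) lowest. The 7 measured carriers and partners had a median of 0.09, and -0.03 without the level trend, with the ATP synthase inhibitor gene Atpif1 at 0.31, the ADP/ATP carrier gene Slc25a4 at 0.15, the phosphate carrier gene Slc25a3 at -0.08 and the outer membrane channel gene Vdac1 at -0.11. Cytosolic ribosomal protein genes, also abundant and short, had a median of 0.12 with 54 of 61 above 0 (48.9% of all genes analysed). The median was 0.07, with 35 of 61 above 0, once the level trend was removed. Rps15 (5.07 and 5.92) and Rps7 (7.99 and 8.81) were highest, Rps15 lying below background on the array labelled wild type. Rps28 and Rpl7a were lowest, with differences of -0.24 and -0.20.

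Among the regulators fixed as a list, the share above 0 was near that of all genes. Of 15 that passed the filter 7 were above 0 (48.9% of all genes analysed were), and the median was -0.08. Tfb2m, a mitochondrial transcription factor, read 5.64 and 6.35 (1.64-fold), the first value near background. Its relative Tfb1m read 7.51 and 7.94. Pprc1, a coactivator of the PGC-1 family, read 6.95 and 6.52, and Yy1 7.25 and 6.87. Nrf1 read 6.68 and 6.72, the GABP alpha gene Gabpa 6.37 and 6.43, and Esrra, which encodes ERR alpha, 6.59 and 6.45. Ppargc1a, the best known coactivator of these genes, lay below background on both arrays.

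**Figure D4:**
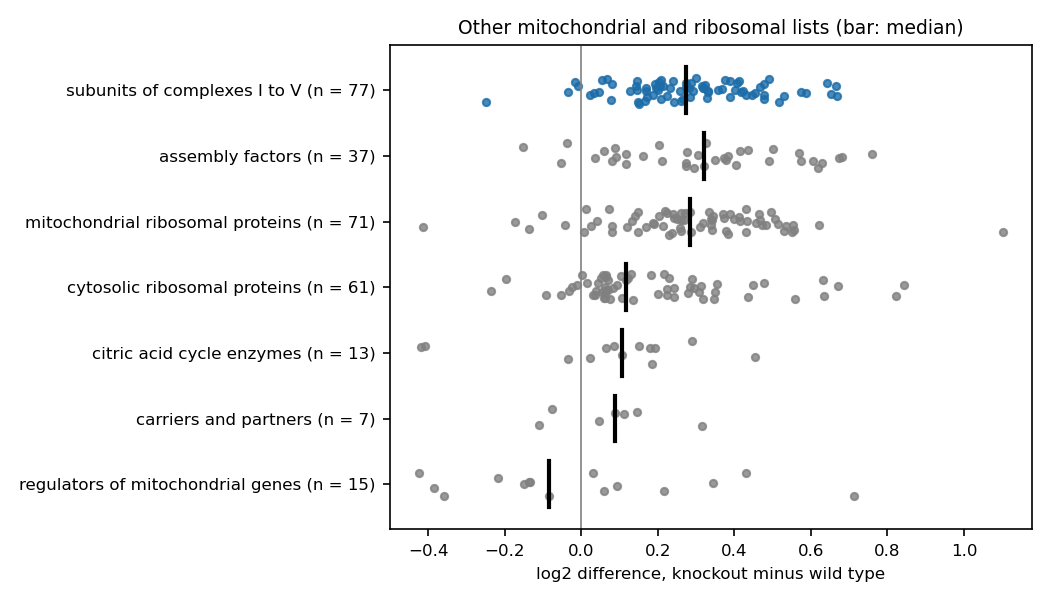
Log2 difference between the arrays (horizontal axis) for each gene that passed the filter (points) in the subunit set and in 6 other lists, with the median of each as a bar. Subunits, assembly factors and mitochondrial ribosomal proteins have medians from 0.27 to 0.32, and the citric acid cycle, carrier and regulator lists from -0.08 to 0.11.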

How the data were processed

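The authors deposited 1 table of log2 values for 41345 rows on 2 arrays, 1 per genotype; the arrays were processed with RMA, per the submitters' processing notes, its version, the array annotation and the build being not given in the sources used here. RMA as a method corrects background, sets arrays to a common distribution and summarises probes. The deposited row values did not share a median: centring each array on its own moved the median difference of genes analysed from 0.00 to 0.07. The log2 scale was taken from that method and the range of values. Rows were named from the platform annotation: 23521 have 1 symbol, 1814 several and 16010 none. Rows of a gene were averaged, and pseudogene copies of these short, abundant genes can share probes.

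With 1 array per genotype no test, p-value or standard error was computed; the number of arrays limits the precision. Calls used 1.5-fold, read beside the share of the 12516 genes analysed. Alternatives were other filters, centring, quantile normalisation, loess (span 0.3), an offset of 32, other row choices and thresholds. Python 3.11.15, pandas 2.3.3 and statsmodels 0.14.6 were used, and the code was tested on simulated data. Members, lists and tests were chosen with earlier results of these data known. Named genes were the highest and lowest 3 of each complex, members past 1.5-fold, core subunits, isoform families, and the extremes of each other list; a few others were named after their values were seen.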

Additional observations from a re-analysis of the deposited data

Results flagged for a closer look

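The comparisons above did not use rows with several gene symbols. Of these 1814 rows, 10 include a symbol matched by the name rule; they were left unnamed because their probes cannot be assigned to 1 gene. All 10 read higher in the knockout-labelled array, with differences from 0.02 to 0.89 and a median of 0.47, and 2 of them were at least 1.5-fold higher. Over all 1814 such rows 44.5% were above 0 and 4.69% at least 1.5-fold higher, and over the 1049 of them at or above the filter level 52.1% and 4.29%. The 10 rows have no replicate and were not tested.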

How the results depend on the processing

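Of the 93 recomputed medians and counts, 82 stayed within 1.5 times their value as deposited, and no median changed sign. Not all 93 could move: a filter set from the receptor genes kept the same 77 subunits and gave identical values. Removing a loess trend of difference on level lowered the medians most, to 0.18 over all subunits, 0.14 for complex II, 0.066 for complex III, 0.072 for complex IV and 0.12 for complex V, while complex I kept 0.25; 68 of 77 subunits were then above 0. Quantile normalisation gave 0.12 for complex III. The count of subunits at least 1.5-fold higher, 5 as deposited, was 3 with quantile normalisation, 3 with the offset of 32 and 1 (Cox6a2) after loess; it was 0 at 2-fold and 0 at 3 local spreads. The cause was not tested. Median centring put 76 of 77 subunits above 0 beside 58.9% of all genes (48.9% as deposited), and quantile normalisation 72 beside 52.1%. Over all settings the median of the subunits ran from 0.18 to 0.34. For named genes that passed the filter, all 230 recomputed differences moved by less than the local spread. This was partly fixed in advance. Median centring shifts every difference by the same amount, and taking the highest row cannot change a gene with 1 row. The 4 named genes below the filter have no local spread; with the offset of 32 Cox8b went from -0.56 to -0.27, Ndufa4l2 from -0.51 to -0.21 and Cox7b2 from -0.43 to -0.08. Signal near background limits Ndufs5, Atp5g1, Atp5o, Atp5c1 and Cox4i2, and in the other lists genes such as Rps15, Mrpl27 and Tfb2m. No paired analysis was possible because each genotype has 1 array, and for the same reason no array could be left out.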
